A study of Mus musculus with 6 samples.

Results

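The 10 genes described here, Ctgf, Cyr61, Ankrd1, Amotl2, Lats2, Ajuba, Axl, Crim1, Ptpn14 and Fjx1, are widely used transcriptional targets of the co-activators YAP and TAZ. They were chosen by symbol, and all 10 were found among the 24972 entries of the deposited gene table. The RNA came from sorted basal cells of the back skin epidermis of mice, with 3 cKO and 3 control libraries. Every sample, controls included, carried p63CreER (a Cre recombinase that tamoxifen switches on in p63-expressing basal cells), Piezo1fl/fl (a floxed gene for the mechanically gated channel Piezo1) and R26-mTmG, a membrane fluorescence reporter. The cKO animals were given tamoxifen, 3 injections of 20 ug per dose within postnatal days 45 to 52, and the controls were given vehicle, so tamoxifen exposure and loss of Piezo1 cannot be told apart. Cre activity was driven by a basal cell promoter, so cells of other types in the sort would keep Piezo1. The labels do not say that each sample was a separate animal, so the p-values reflect how far these libraries vary, and some of that variation may be technical.

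YAP and TAZ carry no DNA-binding domain of their own and reach promoters and enhancers through the TEAD transcription factors. The Hippo kinases MST and LATS phosphorylate them and keep them in the cytoplasm, while stretch, stiff matrix and low cell density favour the nucleus. In skin they are known for their role in basal keratinocyte proliferation and in wound repair. Several targets act back on the pathway, since Lats2, Amotl2 and Ptpn14 encode proteins that restrain YAP, and Ajuba encodes one that restrains LATS.

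Approximate depth, in units of 1000000 reads, was 1.05, 15.6 and 14.2 in cKO replicates 1, 2 and 3, and 20.8 to 24.5 in the controls. In cKO replicate 1 a single read was worth 12.2 normalized counts (the deposited unit, read counts divided by a library factor), against 0.491 to 0.759 in the other 5 libraries, and ribosomal protein genes took 14.5% of its total against 6.72% to 8.73%. Xist stood at 7773, 17829 and 1.05 normalized counts in cKO replicates 1, 2 and 3, and at 13994, 2.82 and 2.85 in control replicates 1, 2 and 3. The sexes were thus unequally divided between the groups, and the part of sex in the results below was not tested. The basal keratin gene Krt5 was abundant throughout, at 230864 to 266942 normalized counts in cKO and 228148 to 260877 in controls.

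The promoters show what these genes share in sequence, and are given because TEAD factors recognise the letters CATTCC. Windows of 250 bases before the transcription start (RefSeq, GRCm38.p6) were found for 8 of the 10 genes (all but Ctgf and Fjx1), 9 windows in all. They were searched on both strands (CATTCC or GGAATG). The letters occurred in 7 of these 8 genes, against 14.4% of the 27025 genes with a window. Lats2, with a pair of annotated starts, was the gene without a match in the window. Ajuba and Ankrd1 each held 2 matches, and 1.02% of all 32851 windows held 2 or more. A match describes the sequence and does not show binding. The windows of Cyr61 (chr3:145649986-145650235, minus strand) and Ajuba (chr14:54577662-54577911, minus strand) are printed whole, since these genes had higher fitted values in cKO (below). For the others the bases around the matches are shown. They lie at chr19:36119935-36120081 (minus strand) for Ankrd1, chr9:102717712-102717771 (plus) for Amotl2, chr1:189728095-189728154 (plus) for Ptpn14, chr7:25788934-25788983 (minus) for Axl and chr17:78200142-78200201 (plus) for Crim1. Each is written 5′ to 3′ on the gene's strand, with the match in capitals.
Cyr61: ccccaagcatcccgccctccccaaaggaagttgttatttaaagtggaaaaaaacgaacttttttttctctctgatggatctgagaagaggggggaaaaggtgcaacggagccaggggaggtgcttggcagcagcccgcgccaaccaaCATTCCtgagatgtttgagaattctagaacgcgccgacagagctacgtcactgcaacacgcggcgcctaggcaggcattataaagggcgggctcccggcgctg
Ajuba: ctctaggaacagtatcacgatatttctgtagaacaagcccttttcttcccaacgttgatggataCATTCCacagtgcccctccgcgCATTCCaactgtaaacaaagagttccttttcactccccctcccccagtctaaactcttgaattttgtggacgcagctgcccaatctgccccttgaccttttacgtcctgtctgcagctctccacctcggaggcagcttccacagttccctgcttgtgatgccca
Ankrd1: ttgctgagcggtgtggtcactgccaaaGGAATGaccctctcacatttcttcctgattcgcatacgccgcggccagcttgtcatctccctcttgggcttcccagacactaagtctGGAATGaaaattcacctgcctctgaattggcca
Amotl2: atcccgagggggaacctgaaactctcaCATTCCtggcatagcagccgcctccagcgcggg
Ptpn14: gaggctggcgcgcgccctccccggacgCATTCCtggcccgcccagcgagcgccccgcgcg
Axl: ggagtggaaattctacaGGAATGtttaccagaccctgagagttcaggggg
Crim1: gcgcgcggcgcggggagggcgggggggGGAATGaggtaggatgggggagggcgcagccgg

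The match in Cyr61 begins 103 bases before the start, and that in Amotl2 65 bases before it. The pair in Ajuba begins 186 and 164 bases before the start, so that only a short stretch separates them. None of the 9 windows held the AP-1 letters TGANTCA, found in 6.75% of all windows, or a CArG box, the SRF motif found in 1.47%. Ctgf and Fjx1, without a window, were not searched.

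Levels differed widely between the 10 genes. Per kilobase of exon (GENCODE M21), Cyr61 stood far above the rest, at 9692 ± 3506 normalized counts per kb in cKO and 7697 ± 5654 in controls (SD, n = 3 each). Ptpn14 followed at 597 ± 210 per kb in cKO and 623 ± 22.7 in controls. Crim1, Axl and Ajuba formed a group whose control values overlapped, with control means of 399, 388 and 350 per kb, and in cKO they averaged 360, 358 and 464 per kb. Amotl2 averaged 107 per kb in cKO and 121 in controls. At the low end, Fjx1, Lats2 and Ctgf averaged 42.4, 49.4 and 79.6 per kb in cKO and 61.4, 53.7 and 47.4 per kb in controls, and each overlapped its neighbour in that order among the controls. Ankrd1 was close to undetected.

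**Figure D1:**
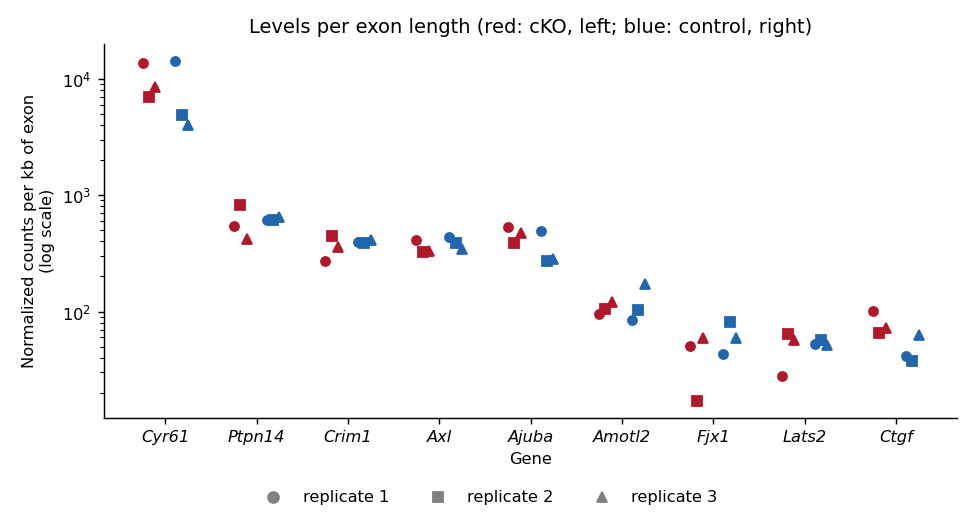
Normalized counts per kilobase of exon (log scale) for the 9 targets other than Ankrd1, ordered by control mean, with cKO libraries in red at left and control libraries in blue at right and a marker shape per replicate number. Cyr61 lies above every other target in all 6 libraries, and the low group holds Fjx1, Lats2 and Ctgf.

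Piezo1 (chr8:122481698-122551329, minus strand, GRCm38) had 380, 565 and 399 normalized counts in cKO replicates 1, 2 and 3, against 806, 1098 and 1476 in control replicates 1, 2 and 3. The groups did not overlap (5.7% of all genes tested with cKO lower). The log2 fold change, cKO minus control, was -1.31, with an SE of 0.27 and a 95% interval of -1.93 to -0.68. Piezo1 did not pass adjustment over the 12239 genes tested with limma (adjusted p = 0.744), and the exact two-sided permutation test gave 0.1, the lowest p possible with 3 libraries in each group. A gene-level value does not separate transcripts with and without the floxed exons.

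The question for the 10 targets was whether they moved together when Piezo1 was deleted, and which of them went against the others. Genes averaging 10 or more normalized counts entered the test, which took in 9 of the targets but not Ankrd1. None passed the Benjamini-Hochberg adjusted p of 0.05 in limma, where 0 of 12239 genes did (0%). The fitted value was lower in cKO for 6 of the 9 (52.9% of all genes tested) and higher for 3 (47.1%), and the median log2 fold change was -0.12, against -0.03 over all genes. The 3 higher ones were Ctgf, Cyr61 and Ajuba, and the 6 lower ones were Fjx1, Lats2, Crim1, Ptpn14, Axl and Amotl2. An unadjusted p under 0.05 was reached by 1 target, Ctgf, on the higher side (1.47% of all genes), and by 0 on the lower side (3.46%). The same 1 gene had groups that did not overlap with cKO higher (5.16% of all genes), and 0 did with cKO lower (5.7%). With limma-voom on approximate reads, 0 genes passed adjustment and 656 (5.36%) had an unadjusted p under 0.05, and the lowest adjusted p of a target was 0.827. Without the shallow cKO replicate 1, 4 of the 9 were lower and 5 higher, with a median of 0.01, and the counts were the same with quantile normalization and with limma-voom.

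**Figure D2:**
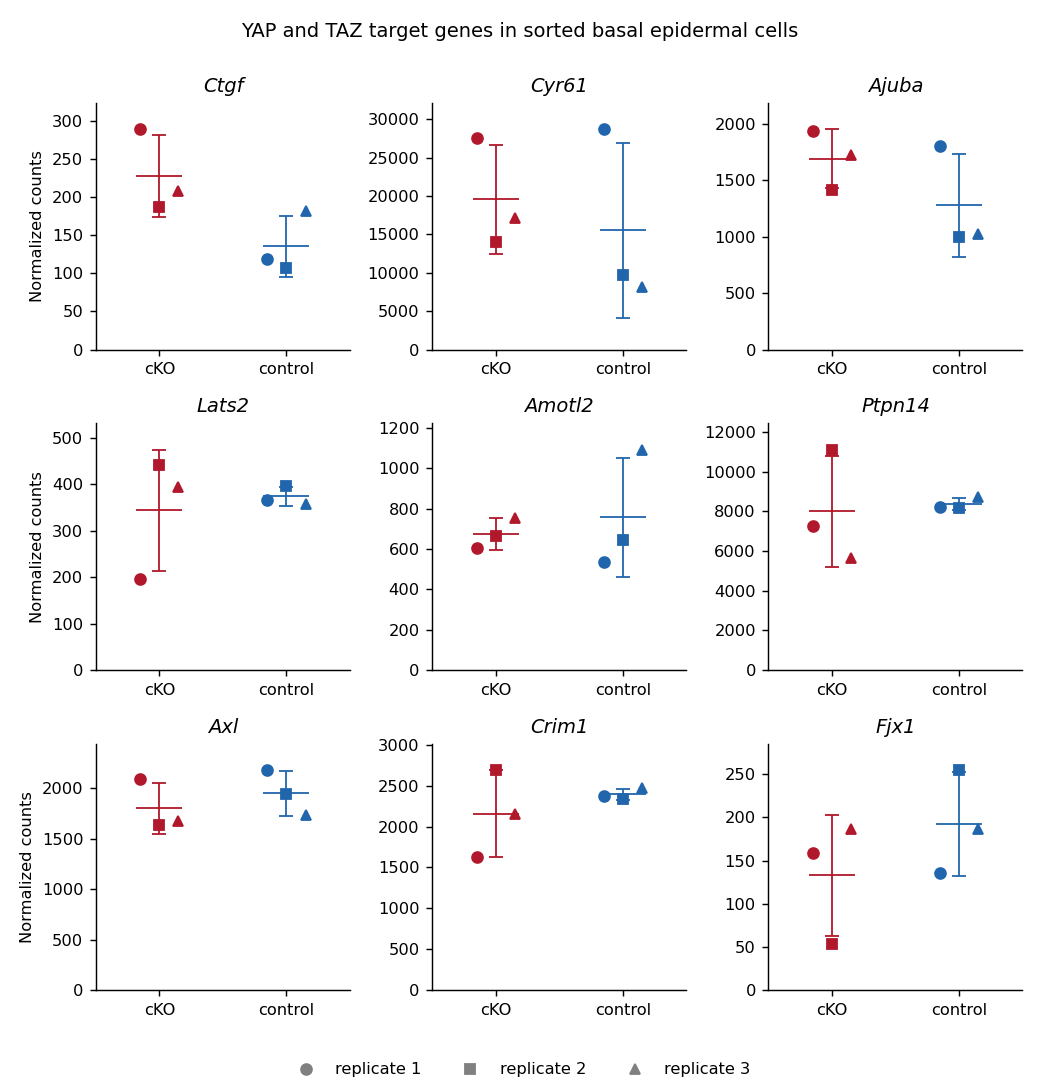
Normalized counts of 9 targets in each library, with cKO (red) left of control (blue), the horizontal bar at the mean and the error bar at 1 SD over 3 libraries. Ctgf is the target whose groups do not overlap, with cKO values of 187 to 288 against 107 to 181 in controls, and every other panel shows overlap.

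Ctgf and Cyr61, which encode secreted matricellular proteins, had higher fitted values in cKO. The list itself had no firm direction to oppose, since the counts of lower and higher targets changed with the settings given above. Ctgf (chr10:24595442-24598683, plus strand, GRCm38), also called Ccn2, which binds integrins and growth factors in the matrix, had 288, 187 and 208 normalized counts in cKO replicates 1, 2 and 3, against 119, 107 and 181 in control replicates 1, 2 and 3. All 3 cKO libraries were above all 3 controls, though the lowest cKO value, 187 (95% Poisson interval 165 to 211), and the highest control value, 181 (161 to 203), were within counting error of each other. The value in cKO replicate 1 came from about 24 reads, with an interval of 188 to 437. These intervals cover counting error only. The means were 228 ± 53.7 in cKO and 136 ± 39.8 in controls (SD, n = 3 each). This was a log2 difference of 0.76 (SE 0.30, 95% interval 0.07 to 1.44), or 1.69-fold higher, with an unadjusted p of 0.0350 and an adjusted p of 0.744 in limma, and an exact permutation p of 0.1. It lay between 0.57 and 0.98 in the 14 alternative settings, the lowest without cKO replicate 1.

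Cyr61 (chr3:145646976-145649981, minus strand), also called Ccn1, a relative of Ctgf in the CCN family and an early response gene of growth factor and stretch signals, had 27533, 14001 and 17168 normalized counts in cKO replicates 1, 2 and 3. In control replicates 1, 2 and 3 it had 28690, 9777 and 8154. Control replicate 1 was the highest of all 6 libraries, 3.20 times the mean of the other controls, while control replicates 2 and 3 were below every cKO library. For Cyr61 this gave a log2 difference of 0.51 (SE 0.50, 95% interval -0.64 to 1.66) with an adjusted p of 0.758 in limma. It was 1.07 when control replicate 1 was left out, and 0.16, 0.30 and 0.23 when control replicate 3, control replicate 2 or cKO replicate 1 was. The other CCN genes were nearly silent, with Nov and Wisp3 at 0 in all 6 libraries and Wisp1 at most 6.87 in cKO and 8.57 in controls.

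Ankrd1, a nuclear and sarcomeric ankyrin repeat protein best known in heart muscle, was listed at 0 in all 3 cKO libraries and in control replicates 1 and 3. Control replicate 2 had 1.47 normalized counts, or about 3 reads. No change could be measured at this depth, since 0 reads allow up to 36.7 normalized counts (3 reads) in cKO replicate 1, and 2.16 and 2.28 in cKO replicates 2 and 3.

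Among the targets that feed back on the pathway, Ajuba was the gene with a higher mean in cKO. Ajuba (chr14:54567472-54577558, minus strand), a LIM domain protein of adherens junctions that holds LATS kinases inactive, had 1936, 1417 and 1723 normalized counts in cKO replicates 1, 2 and 3, against 1806, 998 and 1029 in control replicates 1, 2 and 3. Control replicate 1 lay among the cKO values, and control replicates 2 and 3 were below all of them, as they were for Cyr61. Ajuba had a log2 difference of 0.45 (SE 0.27, 95% interval -0.17 to 1.07) with an adjusted p of 0.744 in limma, and with a library left out it ran from 0.30 (control replicate 2) to 0.73 (control replicate 1).

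Lats2, the kinase that phosphorylates YAP and TAZ, had 196, 443 and 394 normalized counts in cKO replicates 1, 2 and 3, against 367, 398 and 358 in control replicates 1, 2 and 3. Only the shallow cKO replicate 1 was below the controls, with about 16 reads and a 95% Poisson interval of 112 to 318. The log2 fold change of -0.20 (SE 0.32, 95% interval -0.94 to 0.53, adjusted p = 0.818 in limma) became 0.16 without that library.

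Amotl2, an angiomotin family scaffold that binds YAP at junctions, had 603, 665 and 756 normalized counts in cKO replicates 1, 2 and 3, against 536, 645 and 1093 in control replicates 1, 2 and 3. The cKO values lay within the range of the controls, and control replicate 3 was the high one. Its log2 fold change of -0.11 (SE 0.28, 95% interval -0.75 to 0.54) became 0.19 without control replicate 3.

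Ptpn14, a tyrosine phosphatase that binds YAP and holds it out of the nucleus, had 7251, 11118 and 5644 normalized counts in cKO replicates 1, 2 and 3, against 8216, 8155 and 8711 in control replicates 1, 2 and 3. The controls were close together and the cKO libraries lay on both sides of them, spanning 1.97-fold against 1.07-fold in controls. Its log2 fold change of -0.12 (SE 0.27, 95% interval -0.75 to 0.51) became 0.10 without cKO replicate 3.

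Of the cell surface and secretory targets, Axl and Crim1 had small differences in mean and Fjx1 a larger one. Axl, a TAM family receptor tyrosine kinase for Gas6, had 2088, 1636 and 1675 normalized counts in cKO replicates 1, 2 and 3, against 2179, 1938 and 1733 in control replicates 1, 2 and 3. Its groups overlapped through cKO replicate 1. A log2 difference of -0.12 (SE 0.18, 95% interval -0.54 to 0.31) had the narrowest interval of the 9. With quantile normalization it was 0.01, and with a library left out it ran from -0.23 (cKO replicate 1) to -0.04 (control replicate 1).

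Crim1, a transmembrane protein with cysteine-rich repeats that binds BMPs, had 1626, 2691 and 2154 normalized counts in cKO replicates 1, 2 and 3, against 2373, 2334 and 2472 in control replicates 1, 2 and 3. The cKO libraries again lay on both sides of tightly grouped controls, and cKO replicate 1 was the lowest. Its log2 fold change was -0.18 (SE 0.21, 95% interval -0.68 to 0.32), and 0.01 without cKO replicate 1.

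Fjx1, the mouse relative of a Drosophila Golgi kinase that modifies Fat and Dachsous cadherins, had 159, 53.8 and 186 normalized counts in cKO replicates 1, 2 and 3, against 136, 255 and 186 in control replicates 1, 2 and 3. Its low value belonged to cKO replicate 2, and the other 2 cKO libraries were within the control range. The log2 fold change of -0.67 (SE 0.49, 95% interval -1.82 to 0.48, adjusted p = 0.744 in limma) was the largest decrease in mean of the 9, and it was -0.12 without cKO replicate 2. Leaving out control replicate 2 gave -0.44.

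Cyr61 and Ajuba were read beside early response genes, which serum, stretch and cell handling are known to induce within minutes. Egr1, a zinc finger transcription factor, had 43432, 35677 and 37687 normalized counts in cKO replicates 1, 2 and 3, against 50528, 19906 and 17851 in control replicates 1, 2 and 3. From high to low, its 6 libraries ranked as those of Cyr61 did, a likeness noticed after the values were seen. This order was held by 16 of all genes tested (0.131%), Cyr61 and Egr1 included. The orders of the other tested targets were held by 0.0245% (Axl) to 0.793% (Crim1), so this share was within their range. Fos, Jun, Junb and Fosl1 ranked the libraries otherwise. Fos, an AP-1 subunit, had 77454, 47823 and 95187 in cKO replicates 1, 2 and 3, against 78564, 38316 and 24603 in control replicates 1, 2 and 3. Jun and Junb, further AP-1 subunits, were like Fos in having control replicates 2 and 3 as the lowest libraries, and Fosl1 was not. That feature, looked for after the values were seen, held for 2 of the 9 targets, Cyr61 and Ajuba, and for 1483 of all genes tested (12.1%). Control replicate 1 was 3.20 times the mean of the other controls for Cyr61, 1.78 times for Ajuba, 2.68 for Egr1, 2.5 for Fos, 1.74 for Jun and 1.72 for Junb, but 0.823 times for Ctgf. None of these early response genes passed adjustment in limma, with log2 fold changes of 0.57 (SE 0.40) for Egr1, 0.75 (SE 0.46) for Fos, 0.57 (SE 0.38) for Jun and 0.65 (SE 0.41) for Junb. Fosl1 went the other way, at -0.50 (SE 0.31), averaging 8012 normalized counts in cKO and 10984 in controls. With a library left out, Egr1 ran from 0.29 to 1.04 and Fos from 0.36 to 1.202 (lowest without control replicate 3, highest without control replicate 1). Jun ran from 0.27 to 0.89 and Junb from 0.27 to 1.025 (lowest without cKO replicate 1, highest without cKO replicate 2). Control replicate 1 was also the control with high Xist. The part of the early response genes, or of sex, in the values of Cyr61 and Ajuba was not tested.

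**Figure D3:**
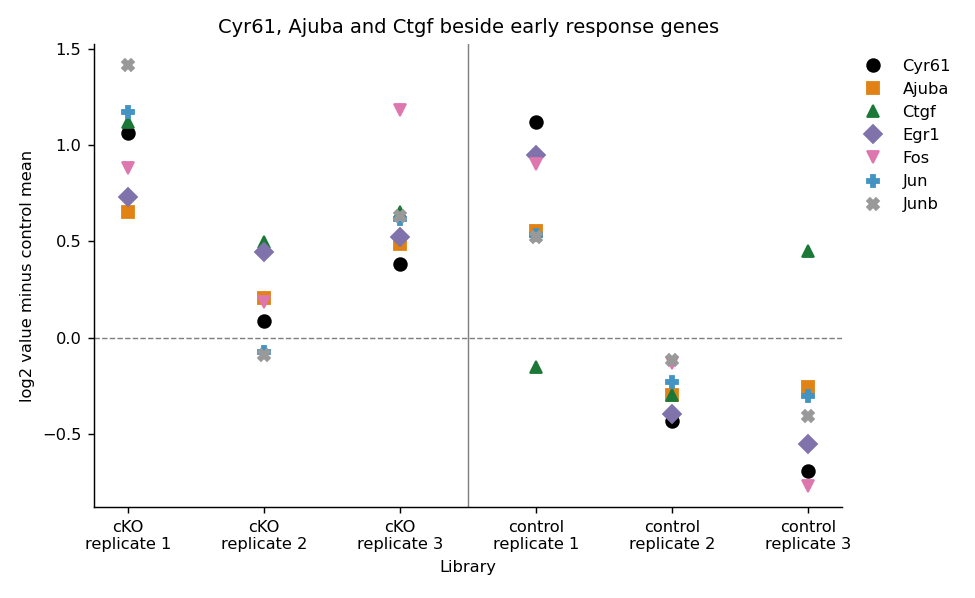
log2(normalized count + 1) minus the control mean for Cyr61, Ajuba, Ctgf and 4 early response genes in each library, cKO left of control, with 1 point per gene and library. Cyr61 and Ajuba are high in control replicate 1 and low in control replicates 2 and 3, as Egr1, Fos, Jun and Junb are, whereas Ctgf is below the control mean in control replicates 1 and 2.

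Other genes of a published pan-cancer YAP and TAZ signature, of which 9 of the 10 targets are also part (all but Ajuba), lay further toward lower values. Of 13 genes, 12 were tested, and 10 had lower (52.9% of all genes) and 2 higher (47.1%) fitted values in cKO, with a median log2 fold change of -0.48 against -0.03 over all genes. By unadjusted p under 0.05, 2 were lower (3.46% of all genes) and 0 higher (1.47%), and 0 passed adjustment over all genes. The groups did not overlap for 3, Gadd45a, Igfbp3 and Myof, each with cKO lower (5.7% of all genes). Gadd45a, a stress-induced regulator of growth arrest and DNA repair, had 395, 456 and 303 normalized counts in cKO replicates 1, 2 and 3, against 589, 906 and 1653 in control replicates 1, 2 and 3 (log2 fold change -1.34, SE 0.37). F3, tissue factor, had 107, 173 and 261 in cKO replicates 1, 2 and 3, against 252, 886 and 1800 in control replicates 1, 2 and 3, and overlapped through control replicate 1. Igfbp3, which binds insulin-like growth factors, gave -0.71 (SE 0.38), and -0.26 without cKO replicate 3. Myof, a membrane repair protein, gave -0.44 (SE 0.20), and -0.28 with quantile normalization. The 2 higher genes were Rbms3 at 0.74 (SE 0.58) and Arhgef17 at 0.22 (SE 0.32). Over these 12 genes, deviations from the control mean (log2) had medians of -0.38, -0.27 and -0.37 in cKO replicates 1, 2 and 3, against -0.33, -0.05 and 0.30 in control replicates 1, 2 and 3. Control replicate 1 was thus close to the cKO libraries here. It was also the control with high Xist, which was high in cKO replicates 1 and 2 but not 3, and the part of sex was not tested. The 9 tested targets had medians of -0.20, 0.17 and 0.07 in cKO replicates 1, 2 and 3, against -0.02, -0.04 and 0.00 in control replicates 1, 2 and 3, so that cKO replicates 2 and 3 were above the controls.

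**Figure D4:**
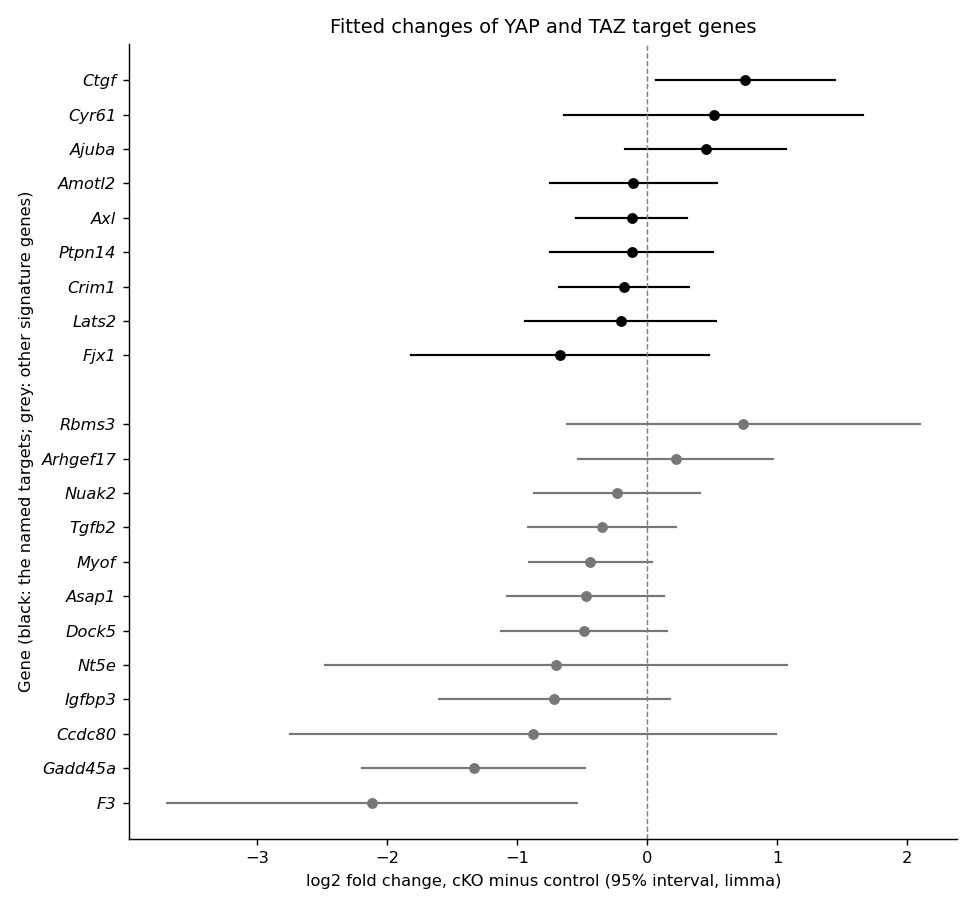
log2 fold changes, cKO minus control, with 95% intervals from limma for the 9 tested targets (black) and the 12 other tested signature genes (grey). Ctgf is the target whose interval stays above 0, at 0.07 to 1.44, and F3 and Gadd45a are the signature genes whose intervals stay below 0.

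The co-activators and the tested TEAD genes had lower means in cKO than in controls. Yap1 had 2503, 3195 and 3157 normalized counts in cKO replicates 1, 2 and 3, against 3292, 3285 and 3511 in control replicates 1, 2 and 3. The groups did not overlap (5.7% of all genes with cKO lower) but the difference was small, with a log2 difference of -0.20 (SE 0.18, adjusted p = 0.746 in limma). It was -0.08 without cKO replicate 1 and -0.02 with quantile normalization. Wwtr1, the gene for TAZ, had 1249, 2402 and 1542 in cKO replicates 1, 2 and 3, against 2163, 3451 and 4445 in control replicates 1, 2 and 3. Here cKO replicate 2 reached above control replicate 1, with a log2 difference of -0.95 (SE 0.33, 95% interval -1.72 to -0.17, adjusted p = 0.744). Of the TEAD genes, Tead1 gave -0.54 (SE 0.23) and Tead3 -0.14 (SE 0.22), and Tead2 was too low to test, at 0 to 2.85 normalized counts in cKO and 2.48 to 11.5 in controls. Tead4 was listed at 0 in cKO replicate 1, where 3 reads are worth 36.7 normalized counts, and had 49.4 and 44.3 in cKO replicates 2 and 3, against 51.7, 188 and 263 in control replicates 1, 2 and 3. Its log2 fold change was -1.53 without cKO replicate 1. Over the Hippo list of kinases, adaptors and partners, 23 of 24 genes were tested, 18 with lower (52.9% of all genes) and 5 with higher (47.1%) fitted values (median -0.20). Of these, 2 were lower at an unadjusted p under 0.05 (3.46% of all genes) and 0 passed adjustment in limma. The groups did not overlap for 4 with cKO lower (5.7% of all genes), Yap1, Tead1 and Tead4 among them, and for 0 with cKO higher (5.16%). Mob1b, an activator of LATS kinases, gave -0.81 (SE 0.37), and -0.42 without cKO replicate 1.

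**Figure D5:**
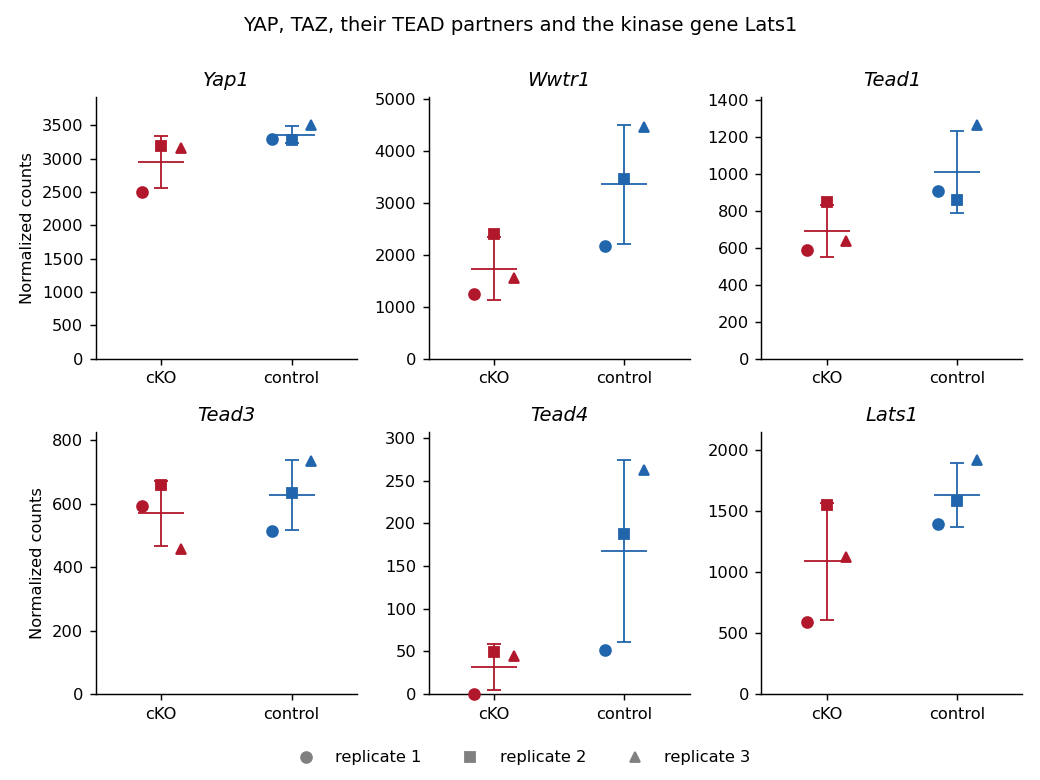
Normalized counts of Yap1, Wwtr1, Tead1, Tead3, Tead4 and Lats1 in each library, with cKO (red) left of control (blue), bars at the mean and error bars of 1 SD over 3 libraries. Wwtr1 averages 1731 in cKO and 3353 in controls, and Tead4 sits at 0 to 49.4 in cKO against 51.7 to 263 in controls.

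Of 19 relatives and partners of the targets 13 were tested, 10 with lower (52.9% of all genes) and 3 with higher (47.1%) fitted values in cKO (median -0.23). At an unadjusted p under 0.05 in limma there were 0 (3.46% of all genes lower and 1.47% higher). Amot, Amotl1, Lats1, Limd1 and Wtip also belong to the Hippo list, so the counts of these lists are not separate. Lats1, the paralog of Lats2, had 590, 1551 and 1124 normalized counts in cKO replicates 1, 2 and 3, against 1398, 1581 and 1920 in control replicates 1, 2 and 3. Its log2 fold change was -0.68 (SE 0.34), and -0.29 without cKO replicate 1. Ankrd23, an ankyrin repeat relative of Ankrd1, gave -0.85 (SE 0.43), and -0.52 with limma-voom. Ptpn21, the relative of Ptpn14, gave -0.28 (SE 0.20), and -0.13 without control replicate 3 or with limma-voom. The giant cadherin gene Fat1 gave -0.40 (SE 0.31), -0.11 without cKO replicate 1 and -0.21 with quantile normalization. Gas6, the Axl ligand, averaged 3778 ± 426 normalized counts in cKO and 3980 ± 440 in controls (SD, n = 3 each). Per kilobase of exon its mean was 1483 in cKO and 1562 in controls, above its relative Pros1 at 199 in cKO and 250 in controls.

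Several targets, Ctgf foremost, also respond to TGF-beta through SMAD factors and to SRF and AP-1. In a list of such factors and genes, 19 of 20 were tested, 13 with lower (52.9% of all genes) and 6 with higher (47.1%) fitted values in cKO (median -0.28). At an unadjusted p under 0.05 in limma, 3 were lower (3.46% of all genes) and 0 higher (1.47%), and 0 passed adjustment. The 3 were Smad3, Tgfbr2 and Edn1, each with groups that did not overlap (5.7% of all genes with cKO lower). Smad3, a TGF-beta signal transducer, had 273, 455 and 346 normalized counts in cKO replicates 1, 2 and 3, against 613, 875 and 1191 in control replicates 1, 2 and 3. Tgfbr2, a TGF-beta receptor subunit, gave -0.99 (SE 0.29), and Edn1, endothelin, -1.84 (SE 0.75), which was -0.87 without cKO replicate 1 and -0.98 with limma-voom. Thbs1, a matrix glycoprotein that activates latent TGF-beta, gave -0.73 (SE 0.33). Srf itself was at 2866 ± 921 in cKO and 3103 ± 344 in controls (SD, n = 3 each).

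Ctgf, Cyr61 and Ankrd1 are also expressed by fibroblasts and vessel cells, and Axl by Langerhans cells, so markers of these cells were read beside them. In bulk samples fewer cells of a type and less RNA per cell cannot be told apart. The summed level of 6 fibroblast markers was 20.8 to 43.4 normalized counts in cKO and 16.9 to 31.3 in controls, with Col1a1 at most 16.9 and Col1a2 at most 14.95 in any library. Lum, at 24.5 in cKO replicate 1 and 0 elsewhere, was the highest single value of that list, under the 36.7 that 3 reads are worth there. For 6 endothelial markers the sum was 23.1 to 30.1 in cKO and 13.2 to 24.2 in controls, and Pecam1 was at most 10.7. Cdh5, too low to test, had 24.8, 2.86 and 1.52 in cKO replicates 1, 2 and 3, against 0 to 0.602 in controls. Its groups did not overlap (5.16% of the genes tested with cKO higher), again with the high value below 3 reads in cKO replicate 1. Pericyte and smooth muscle markers summed to 18.4 to 50.6 in cKO and 19.4 to 32.0 in controls, with Myh11 at most 1.43 and Des at most 0.760. Cnn1, the tested marker of that list, had 50.6, 13.0 and 5.27 in cKO replicates 1, 2 and 3, against 16.1 to 25.1 in controls. Melanocyte and Schwann cell markers summed to 12.3 to 73.5 in cKO and 20.0 to 24.0 in controls, with Mlana at most 0.491 and Pmel at most 17.6. Dct, the tested marker here, had 12.3, 34.2 and 50.6 in cKO replicates 1, 2 and 3, against 7.25 to 9.02 in controls. Its groups did not overlap (5.16% of all genes with cKO higher), and its log2 fold change was 1.63 (SE 0.75). Its value in cKO replicate 1 was below 3 reads. All 4 lists were near the floor of cKO replicate 1, in which 4 or 5 of each 6 markers were at 0. Langerhans cell and myeloid markers summed to 1707 to 8051 in cKO and 1077 to 1364 in controls, and T cell markers to 299 to 871 in cKO and 72.7 to 123 in controls, with no overlap for either list. Cd207 was at 170, 172 and 1035 in cKO replicates 1, 2 and 3, against 87.3 to 222 in controls, and Cd74 at 1008 to 4490 in cKO and 667 to 737 in controls. Cd3d was at 9.24 to 49.4 in cKO and 0.605 to 5.50 in controls, and Cd3e at 59.8 to 128 in cKO and 12.3 to 30.1 in controls. Of 6 T cell markers 5 had higher fitted values in cKO (47.1% of all genes) and 1 lower (52.9%). Of 5 tested Langerhans and myeloid markers 4 were higher and 1 lower. Groups did not overlap, with cKO higher, for 5 and 3 of them (5.16% of all genes). The lower ones were Ptprc and Itgam, both at 0 in cKO replicate 1. In cKO replicates 2 and 3 Ptprc had 92.9 and 263 (controls 27.6 to 30.6) and Itgam 12.8 and 55.2 (controls 5.01 to 18.8). In cKO replicate 3, the library with the highest Langerhans sum, Axl stood at 1675 normalized counts, between cKO replicates 1 and 2. Suprabasal keratinocyte markers, 5 of 6 in the table, summed to 78236 to 96807 in cKO and 43385 to 100635 in controls, basal markers to 428407 to 545916 in cKO and 450847 to 486467 in controls, and hair follicle markers to 79075 to 163235 in cKO and 95330 to 110859 in controls. Keratin genes made up most of each sum: Krt1 and Krt10 of the suprabasal, Krt5 and Krt14 of the basal and Krt15 of the follicle sum (161023 in cKO replicate 1). Krt1 was at 24980 to 37749 in cKO and 10299 to 24228 in controls, without overlap (5.16% of all genes with cKO higher). Krt10 was at 40517 to 65954 in cKO and 29476 to 59458 in controls. These 2 were the suprabasal markers with higher fitted values in cKO (47.1% of all genes), and the other 3 were lower (52.9%). Lor gave a log2 fold change of -1.84 (SE 1.03), Ivl -0.19 (SE 0.71) and Sbsn -0.07 (SE 0.48). Krt14 was at 117197 to 203481 in cKO and 129245 to 149201 in controls, while the follicle markers Cd34 and Lgr5 were at 52.5 to 86.1 and 23.8 to 94.4 in cKO, against 34.5 to 70.3 and 31.4 to 37.5 in controls. Of 6 basal markers 3 were higher and 3 lower in cKO. Trp63 gave 0.50 (SE 0.21) and Itgb4 -0.29 (SE 0.19), both without overlap (5.16% of all genes higher and 5.7% lower), and Itga6 gave -0.70 (SE 0.36). Of 6 follicle markers 4 were higher and 2 lower, Nfatc1 at -0.59 (SE 0.37) and Sox9 at -0.07 (SE 0.41). The part of these cell types in the values of the targets was not tested.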

How the data were processed

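RNA-seq libraries from sorted basal epidermal cells, 3 cKO and 3 control, were grouped by sample title. Poly(A) RNA was prepared with a directional kit, per the labels' protocols. STAR, DESeq2 and GRCm38 are named in the submitters' processing notes. The counting program, strand use and annotation: not given in the sources used here. The authors deposited a normalized count signal per gene. Low values recur at multiples of a step per library, taken as the worth of 1 read. Up to 3.5 reads, 47.1% (cKO replicate 1) to 90.0% of values were within 0.05 of a whole read, but only 9.01% to 13.7% between 20 and 100 reads, so whole reads could not be recovered and depths are approximate. Fez2, on the opposite strand, overlaps Crim1, and unnamed models overlap Ctgf, Lats2 and Ptpn14, so reads there may be divided in unknown ways.

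Values were tested as log2(value + 1) for the 12239 genes with a mean of at least 10, with limma 3.58.1 (R 4.3.3, statmod 1.5.0, trend and robust empirical Bayes), two-sided, without covariates, and Benjamini-Hochberg adjustment at 0.05. Adding 1 can understate changes of low genes, but can enlarge decreases where cKO replicate 1 is at 0, since 1 read there was worth 12.2 normalized counts. In that library 802 tested genes were at 0. The log2 fold change of Tead4 was -3.39, and -2.23 when 10 was added instead. Exact permutation tests used the 6 libraries. The steps were tested on simulated data. The members and lists were chosen with earlier results of these data known. Named are the 10 members, Piezo1, Yap1, Wwtr1, the TEAD genes, up to 4 genes of smallest unadjusted p per pathway list and the first 2 of each marker list. Early response genes, Rbms3, Arhgef17, Gas6, Pros1, Srf, Fosl1, Lum, Xist and the silent CCN genes were named after their values were seen. So were the markers Lor, Ivl, Sbsn, Trp63, Itga6, Itgb4, Krt15, Sox9, Nfatc1, Ptprc, Itgam, Dct and Cnn1. Alternatives were pseudocounts, filters, scalings, limma-voom, a replicate block and leaving out each library.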

Additional observations from a re-analysis of the deposited data

How the results depend on the processing

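Across 14 alternatives, Ctgf, Cyr61 and Ajuba stayed higher in cKO and Fjx1 lower, and no target passed adjustment (smallest adjusted p = 0.382, for Ctgf). The other 5 targets changed direction in some settings. With quantile normalization Axl was at 0.00904 and Ptpn14 at 0.0176, and with limma-voom Amotl2 was at 0.0401 and Lats2 at 0.171. With a library left out, log2 fold changes ran from -0.425 to 0.160 for Lats2 and -0.354 to 0.00925 for Crim1 (highest without cKO replicate 1), -0.386 to 0.104 for Ptpn14 and -0.277 to 0.0112 for Tead3 (highest without cKO replicate 3), and -0.322 to 0.192 for Amotl2 (highest without control replicate 3). The number of targets higher in cKO was 5 with quantile normalization and with limma-voom, and 3 to 5 with a library left out. With limma-voom the median over the targets was 0.0401, while that over all genes was 0.104, against -0.0312 in the limma fit. The Hippo list had 8 higher genes with quantile normalization, 9 with limma-voom and 2 to 8 with a library left out. For the other signature genes that number was 1 to 3 with a library left out. No gene passed adjustment over the table except 1 without cKO replicate 2, and 169 to 1574 genes had an unadjusted p under 0.05 with a library left out, against 603 with all 6. That number was 169, 220 and 1029 when control replicates 3, 2 and 1 were left out in turn, and 1574 for cKO replicate 2. The cause of these shifts was not tested. Same-numbered cKO and control libraries had deviations from their group means correlated at 0.09, -0.15 and 0.07 for replicates 1, 2 and 3. Differently numbered ones ran from -0.168 to 0.175. With only 3 libraries centred in each group, these values cannot show whether the numbers pair the libraries. With the replicate block 0 genes passed and 848 had an unadjusted p under 0.05, against 603 without it. The fold changes are fixed by the balanced design (0.76 for Ctgf). Depth limits cKO replicate 1, in which 15.2% of tested genes were under 3 reads.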
